A study of Mus musculus with 2 samples.

Results

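The 9 genes described here were Bmp2, Bmp4, Bmp6, Bmpr2, Acvrl1, Eng, Id1, Id3 and Smad6, which stand for the ligands, receptors, target genes and inhibitor of bone morphogenetic protein (BMP) signalling. They were taken by gene symbol, not by a rule on any measured value, from the 32285 genes of the count tables. Earlier results of these data were known when they were chosen. All 9 had at least 1 unique molecular identifier (UMI, a count of 1 captured RNA molecule) in both libraries, as had 23538 genes in the WT library and 23847 in the Prox1 mutant library. Each gene was followed across endothelial subtypes, stromal cells and the other cell types that marker genes defined.

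The study compared the inflamed temporomandibular joint (TMJ), the jaw joint, of WT mice with that of mice carrying a mutant allele of Prox1, the transcription factor that specifies lymphatic endothelium. The mutants were heterozygous (Prox1+/−), and the allele is carried by the whole animal and not by a single cell type. Both groups were C57BL/6 mice aged 8 to 10 weeks, female per the study's text, and both had received complete Freund's adjuvant (CFA), an inflammatory emulsion, in the joint, so no sample without CFA was available for comparison here. There was 1 droplet library of single cells per genotype, and the number of mice behind each and the time from injection to harvest were not given in the sources used here.

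BMPs are secreted ligands that bind a complex of type I and type II serine/threonine kinase receptors, which phosphorylate SMAD proteins that enter the nucleus and switch on target genes. In vessels, Acvrl1 (the type I receptor ALK1) acts with the co-receptor endoglin (Eng) and the type II receptor Bmpr2, and inherited loss of these genes causes vascular malformations or pulmonary arterial hypertension. The Id genes, which encode inhibitors of basic helix-loop-helix transcription factors, are early targets of the pathway, and Smad6 is an induced inhibitor that dampens it inside the cell. Bmp2, Bmp4 and Bmp6 are best known for bone and cartilage formation, and Bmp6 from liver endothelium controls iron balance.

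The deposited tables held 5709 WT and 7846 mutant cell barcodes, of which 4352 and 5757 passed the filters, with 48366846 and 54330221 UMIs. The median was 6997 UMIs per WT cell and 4848 per mutant cell, and 4 barcodes occurred in both libraries. Prox1 was at 11.6 counts per 1000000 UMIs (CPM) over all WT cells and 5.80 CPM over all mutant cells. In the 12 WT and 4 mutant cells with lymphatic markers it was at 1503 and 633 CPM, and 152 of the 258 WT UMIs came from 1 cell. It was not lower in every type: venous endothelial cells had 10.7 CPM in WT and 42.2 CPM in mutant, where 34 of 70 UMIs came from 1 cell, and muscle satellite cells had 312 and 465 CPM. The libraries also differed in haemoglobin transcripts, which reached 1555 CPM in WT and 14201 CPM in mutant endothelial cells, and their part in the results below was not tested beyond the values given beside them. With 1 library per genotype there was no replicate and no test. Ranges in brackets are 95% intervals (exact Poisson for a CPM, exact conditional binomial for a ratio) that cover counting error only, and not the spread between mice.

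Clusters were named from marker genes, and the 9 genes were left out of the genes used for clustering. Endothelial cells (1034 WT and 523 mutant cells) had all 10 of their markers raised and none of the mesenchymal, pericyte or macrophage markers. They fell into capillary cells (731 and 346, high in Gpihbp1 and Car4), venous cells (156 and 90, high in Selp, Ackr1 and Vwf) and arterial cells (135 and 83, high in Gja5 and Sema3g). The venous name held at subcluster resolution 0.3 only, and at 0.8 no subcluster took it. There, 168 cells led by Ubd, as the venous cluster was, took a tip-like name (4 of 6 markers raised). Another 96 cells, led by Ccl21a, Stab2 and Mmrn1, took a lymphatic name (6 of 7). The venous cluster held 168 WT and 94 mutant cells before the 12 and 4 cells with lymphatic markers were taken out of it. How many of the 96 lymphatic-named cells were counted as venous was not examined. At 0.8 the capillary name went to subclusters of 443 and 282 cells and the arterial name to 126 cells. A subcluster of 285 cells led by Fhod3, with Bmp6 among its 10 leading genes, raised under 3 markers and took no name. Another 157 cells had 6 of 8 arterial markers raised but stayed unnamed, because markers of another subtype led. The venous levels below were measured at resolution 0.3 only, and the capillary and arterial levels printed are also those of 0.3. Mesenchymal cells (365 and 239) had all 10 of their own markers raised, none of 10 endothelial markers and 2 of 8 pericyte markers. In 2 further stromal clusters the markers did not settle a name, so they are called by a leading gene, Tnn (170 and 106 cells) and Dok6 (86 and 29 cells). The Tnn-led cluster had 7 of 10 mesenchymal, 4 of 8 chondrocyte and 4 of 7 osteoblast markers raised, and the Dok6-led cluster 3 of each. Clusters led by Ccdc85a (122 WT and 158 mutant cells) and by Rbp7 (104 and 79) had 10 of 10 endothelial markers raised. Their cells were shallow, so they stayed unnamed and are not among the endothelial cells counted here.

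The 9 genes did not all peak in the same cell type. Among 15 cell types with at least 20 cells in each library, endothelial cells had the highest level of Bmp6, Bmpr2, Acvrl1, Eng and Id1, and the interval did not overlap that of the next type. Bmp2 was highest in chondrocytes, Bmp4 in muscle satellite cells and Smad6 in osteoblasts and osteocytes. Id3 was highest in osteoblasts and osteocytes in the WT library and in muscle satellite cells in the mutant library. By point estimate the type with the highest level was therefore shared by the libraries for 8 of the 9 genes. For Bmp2, Bmp4 and Id3 its interval overlapped that of the next type in both libraries. The share of all genes with a shared top type, or with endothelial cells as the top type, was not computed. Below the top type the order varied, and pericytes ranked 2 for Bmp2 in WT but 6 in mutant. Under a stricter rule, at least 2 times the level of every other named type in both libraries after adding 5 CPM, 1 of the 9 genes (Eng) was endothelial, against 1.96% of 13696 genes with at least 200 UMIs.

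**Figure D1:**
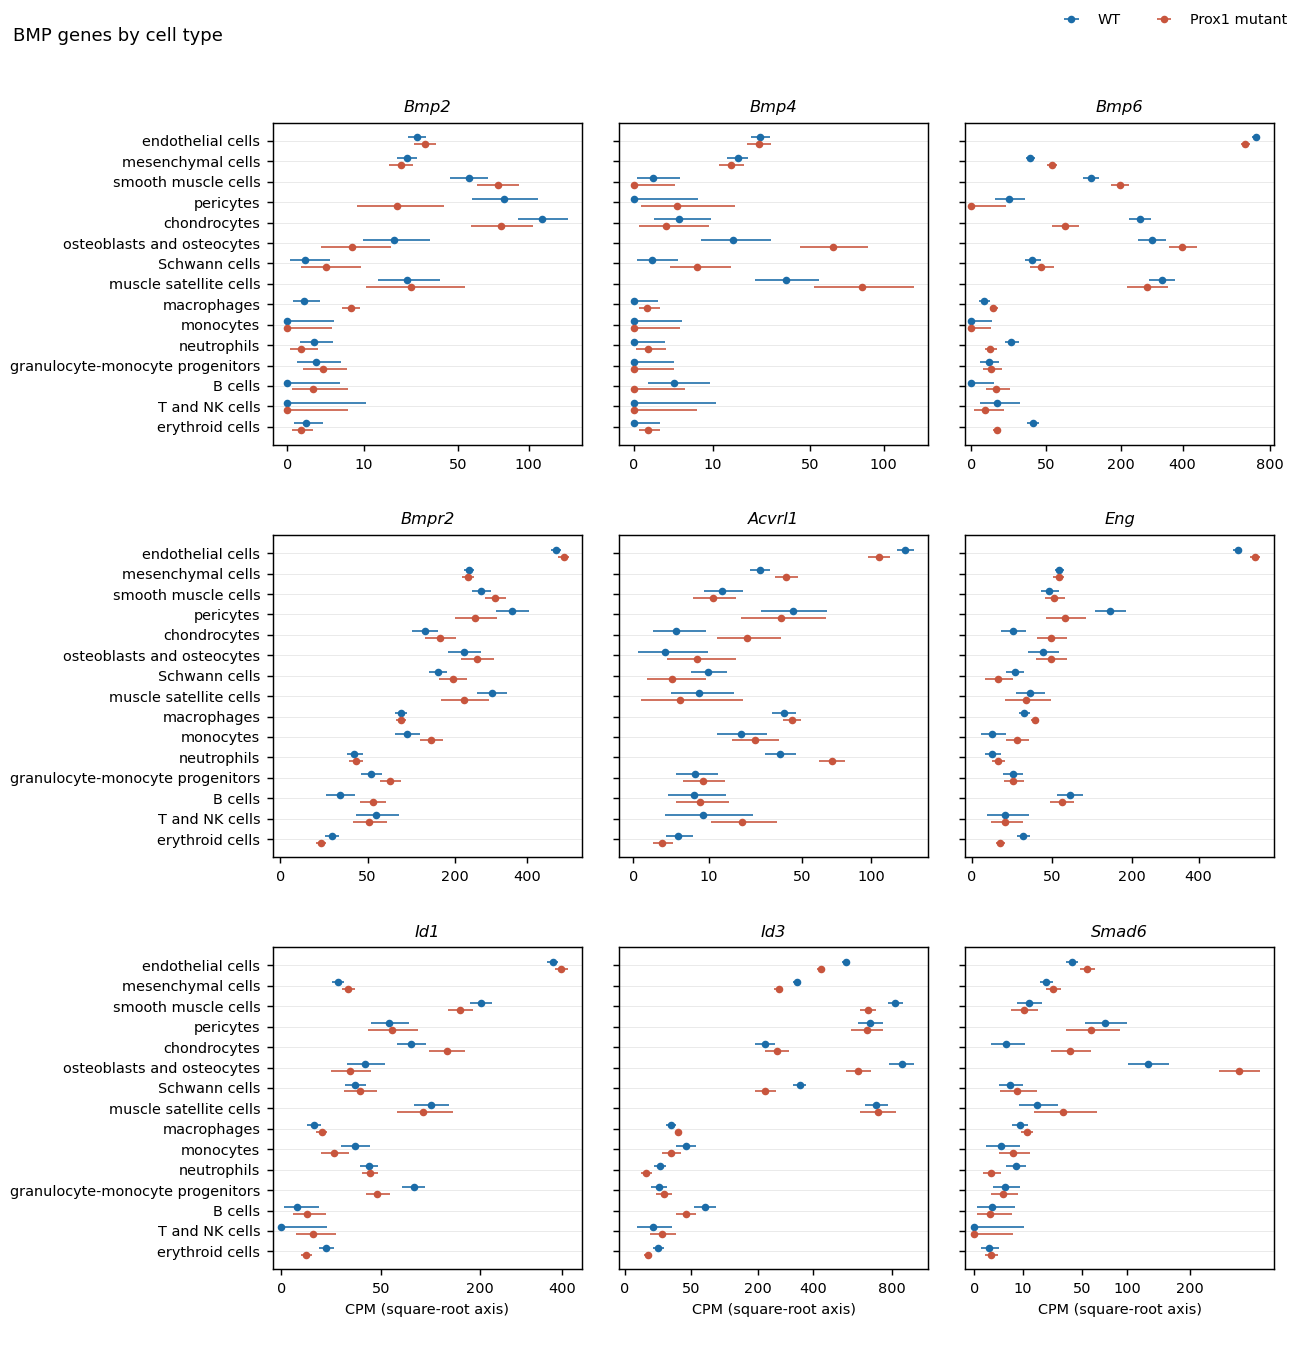
Level of each of the 9 BMP genes in CPM (horizontal, square-root axis) in 15 cell types of the WT library (blue) and the Prox1 mutant library (red), with bars for the 95% counting interval. Endothelial cells lie farthest right for Bmp6, Bmpr2, Acvrl1, Eng and Id1, while Bmp2 peaks in chondrocytes and Smad6 in osteoblasts and osteocytes.

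Among the ligands, Bmp2 (ENSMUSG00000027358, plus strand of chromosome 2 at 133552159 to 133562885, GRCm38) was a stromal and venous transcript more than a capillary one. In endothelial cells 28.9 CPM (25.1–33.1) was measured in WT and 32.3 CPM (27.4–37.9) in mutant, close to the 24.5 CPM (20.5–29.0) and 22.1 CPM (17.9–26.9) of mesenchymal cells. Chondrocytes had 112 CPM (91.3–135) in WT and 78.3 CPM (57.8–104) in mutant. In each library the interval of chondrocytes overlapped that of the type ranked next, which was pericytes in WT (80.5 CPM) and smooth muscle cells in mutant (76.2 CPM).

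Within the endothelium, Bmp2 was concentrated in the cells named venous at resolution 0.3, at 61.6 CPM (52.3–72.1) in WT and 66.3 CPM (54.5–79.9) in mutant. Capillary cells had 4.34 CPM in WT and 16.3 CPM in mutant, from 14 and 33 UMIs, and 18 of the 33 came from 1 cell. Arterial cells had 30.5 CPM in WT and 7.92 CPM in mutant, from 36 and 7 UMIs. Venous and capillary intervals did not overlap in either library. A Bmp2 UMI was found in 22.4% of WT and 26.7% of mutant venous cells, and after each cell was thinned to 2000 UMIs in 9.68% and 8.89%. In neutrophils, which served as the background for free RNA, the unthinned shares were 0.325% and 0.313%. Median depths were 13979.5 and 14820 UMIs in venous cells and 4745 and 8991 UMIs in neutrophils.

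The Dok6-led stromal cluster held the highest Bmp2 level of the groups measured. Bmp2 was at 338 CPM (306–373) in WT and 239.6 CPM (196–291) in mutant, 13.8-fold (11.3–16.9) and 10.9-fold (8.15–14.5) above mesenchymal cells. A UMI was found in 79.1% of the 86 WT cells and 65.5% of the 29 mutant cells, or in 53.6% and 31.0% after thinning. The unnamed stromal clusters together held 46.5% of all Bmp2 UMIs in WT and 26.7% in mutant, and endothelial cells held 17.0% and 20.1%.

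Bmp4 (ENSMUSG00000021835, minus strand of chromosome 14 at 46383520 to 46390669), a ligand of the same subgroup as Bmp2, was held mainly by endothelial and mesenchymal cells. It was at 25.5 CPM (21.9–29.5) and 25 CPM (20.7–30.0) in WT and mutant endothelial cells and at 17.2 CPM (13.9–21.0) and 15.2 CPM (11.7–19.3) in mesenchymal cells. Mural cells held almost none: smooth muscle cells had 1 UMI in WT and 0 in mutant, which allows up to 2.24 CPM, and pericytes had 0 in WT, which allows up to 5.37 CPM, and 1 in mutant. Endothelial cells held 45.5% of the Bmp4 UMIs in WT and 37.2% in mutant, and mesenchymal cells 23.9% and 21.2%.

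Like Bmp2, Bmp4 was highest among endothelial subtypes in venous cells, at 40.2 CPM (32.7–48.8) in WT and 44.0 CPM (34.5–55.3) in mutant. Capillary cells had 17.4 CPM (13.1–22.5) and 11.8 CPM (7.59–17.6), and arterial cells 11.9 CPM (6.49–19.9) and 21.5 CPM (12.9–33.6). Venous intervals overlapped none of the others in WT and ended just short of overlapping the arterial interval in mutant. In muscle satellite cells, the stem cells of muscle, 24 WT and 22 mutant UMIs gave 36.9 CPM (23.7–54.9) and 83.1 CPM (52.1–126). In mutant osteoblasts and osteocytes 16 of 35 Bmp4 UMIs came from 1 cell.

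Bmp6 (ENSMUSG00000039004, plus strand of chromosome 13 at 38345107 to 38500302) was the member most sharply divided by vessel type. In capillary cells it was at 1510.2 CPM (1468–1553) in WT and 1336 CPM (1286–1387) in mutant. In venous cells it was at 74.7 CPM (64.4–86.2) and 113 CPM (97.7–131), and in arterial cells at 69.5 CPM (55.3–86.2) and 245 CPM (214–280.3). The capillary level was thus 20.2-fold (17.5–23.5) and 11.8-fold (10.2–13.7) above venous cells, and 21.7-fold (17.5–27.4) and 5.44-fold (4.74–6.28) above arterial cells.

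Most capillary cells carried the transcript. A Bmp6 UMI was found in 83.2% of WT and 82.9% of mutant capillary cells, and in 76.8% and 72.3% after thinning. The median capillary cell had 5 Bmp6 UMIs in both libraries, and the highest had 44 in WT and 52 in mutant. Neutrophils had a Bmp6 UMI in 1.62% and 1.88% of cells, at median depths of 4745 and 8991 UMIs against 3879 and 5233.5 in capillary cells. Of the 2 capillary clusters, the one led by Fhod3 had 1577 CPM in WT and 1478 CPM in mutant, and the one led by Btnl9 had 1333 and 948 CPM.

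Outside the endothelium Bmp6 was found in muscle, bone and smooth muscle. Muscle satellite cells had 326 CPM (284–373) in WT and 276 CPM (216–347) in mutant, and osteoblasts and osteocytes 293 CPM (250.3–341) and 399.7 CPM (349–456). Smooth muscle cells had 129 CPM (112–147) and 199 CPM (176–224). Mesenchymal cells were lower, at 30.8 CPM (26.4–35.8) and 58.8 CPM (51.8–66.5). Pericytes had 7 UMIs in WT and 0 in mutant, which allows up to 8.82 CPM. Endothelial cells held 72.9% of all Bmp6 UMIs in WT and 63.2% in mutant, although they were 23.8% and 9.08% of the cells. The shallow Ccdc85a-led and Rbp7-led clusters together held a further 4.14% and 5.27%.

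**Figure D2:**
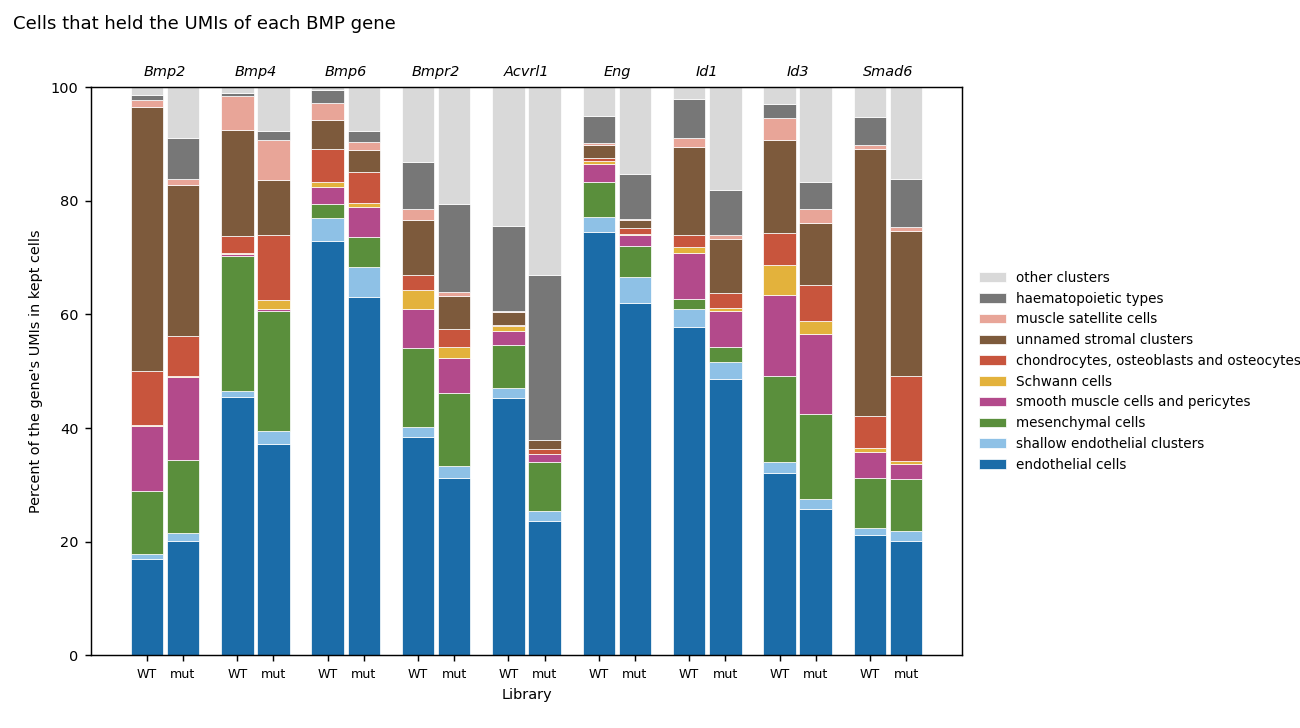
Share of the UMIs of each of the 9 BMP genes (vertical, percent of the gene's UMIs in the cells that passed the filters) held by 10 groups of cells, in 1 stacked bar per library. Endothelial cells, at the base of each bar, held most of the Bmp6 and Eng UMIs in both libraries, whereas Bmp2 and Smad6 had their widest WT block in the unnamed stromal clusters (46.5% and 47.0%).

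Among the receptors, the type II receptor Bmpr2 (ENSMUSG00000067336, plus strand of chromosome 1 at 59763400 to 59879014) was the most evenly spread. Endothelial cells had 499.8 CPM (484–517) in WT and 528 CPM (507–549) in mutant, 2.14-fold (2.01–2.28) and 2.28-fold (2.12–2.45) above mesenchymal cells at 233 and 232 CPM. The 3 vessel types lay between 448 and 575 CPM in WT and between 477 and 640.1 CPM in mutant. Macrophages still had 96.2 and 95.6 CPM, and neutrophils had 36.1 and 37.5 CPM. Bmpr2 overlaps a second annotated gene on the same strand (Gm38125), as Eng does Mir1954, Gm47291 and Gm26236, and reads from a shared stretch cannot be told apart. Bmp4, Bmp6, Acvrl1 and Eng also overlap genes on the opposite strand, and the strand setting of the counting was not given in the sources used here.

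Acvrl1 (ENSMUSG00000000530, plus strand of chromosome 15 at 101128522 to 101145336), the type I receptor of endothelium, followed an arterial, capillary, venous order. Arterial cells had 225 CPM (199–254) in WT and 192 CPM (164–223) in mutant, capillary cells 141 CPM (128–155) and 117 CPM (103–133), and venous cells 78.3 CPM (67.8–90.1) and 49.4 CPM (39.3–61.4). No 2 of these intervals overlapped within a library. The arterial level was 2.88-fold (2.38–3.48) above the venous level in WT and 3.89-fold (2.97–5.13) above it in mutant.

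Acvrl1 was also present in myeloid cells. Macrophages had 39.9 CPM (34–46.6) in WT and 44.2 CPM (39.3–49.4) in mutant, and neutrophils 38.1 CPM (30.8–46.7) and 69.5 CPM (60.9–78.9). Mesenchymal cells were similar, at 28.3 CPM (24.0–33.1) and 41.3 CPM (35.5–47.8). Endothelial cells held 45.3% of the Acvrl1 UMIs in WT and 23.6% in mutant, while named haematopoietic types held 14.9% and 29.0%. A further 24.4% and 33.1% lay in other clusters, most of them unnamed. One of these (49 WT and 231 mutant cells) had 8 of 8 neutrophil markers raised, mixed with macrophage markers, so the named types do not give the whole blood-cell share. Another, led by Mmp12, had 255 WT and 188 mutant cells at 4.94 times the median depth and raised under 3 markers of any type. Its leading genes included Mmp12 and Spp1, which the paper lists for M1-like macrophages. The macrophage levels given here leave these cells out, and the Acvrl1 UMIs of each unnamed cluster were not counted apart.

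Eng (ENSMUSG00000026814, plus strand of chromosome 2 at 32646595 to 32682669), the co-receptor that presents ligand to Acvrl1, was the member that met the endothelial rule. Endothelial cells had 549 CPM (532–567) in WT and 623 CPM (601–647) in mutant. The next type was pericytes, at 149 CPM (118–184) and 67.6 CPM (42.9–101), followed by B cells at 74.6 and 62.9 CPM. With 5 CPM added, the ratio of endothelial cells to the next type was 3.61 in WT and 8.65 in mutant. Mesenchymal cells had 59.4 CPM (53.2–66.2) and 58.6 CPM (51.6–66.2).

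Eng was carried by all 3 vessel types. In WT it was at 490.5 CPM (467–515) in capillary, 635 CPM (604–666) in venous and 580.4 CPM (538–626) in arterial cells. In mutant they were at 568 CPM (536–602), 590.2 CPM (554–628) and 846 CPM (786–909), and the arterial interval stood above the other 2. An Eng UMI was found in 81.3% of WT and 92.4% of mutant endothelial cells, and in 60.5% and 66.0% after thinning. Neutrophils had one in 1.95% and 4.08% of cells.

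The stretches just upstream of Eng and Smad6 are shown because Eng met the endothelial rule and Smad6 differed most between arterial and venous cells, and because both windows lie outside the annotated gene. They are the 250 bases before the RefSeq start (GRCm38.p6), written 5′ to 3′ on the strand of the gene, with the SMAD-binding tetranucleotide GTCT (or its complement AGAC) in capitals. Both strands were searched, also for the GC-rich BMP motif GGCGCC and for the palindrome GTCTAGAC, which contains both tetranucleotides. The Eng window (chr2:32646345-32646594, plus strand) held GTCT or AGAC 2 times, starting 127 and 213 bases before the start, and the Smad6 window (chr9:64022060-64022309, minus strand) 1 time, 4 bases before it.
Eng: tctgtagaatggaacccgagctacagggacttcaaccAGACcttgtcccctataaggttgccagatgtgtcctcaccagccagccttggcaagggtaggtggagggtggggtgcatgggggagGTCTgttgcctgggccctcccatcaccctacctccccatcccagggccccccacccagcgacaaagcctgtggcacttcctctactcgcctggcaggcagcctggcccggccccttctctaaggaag
Smad6: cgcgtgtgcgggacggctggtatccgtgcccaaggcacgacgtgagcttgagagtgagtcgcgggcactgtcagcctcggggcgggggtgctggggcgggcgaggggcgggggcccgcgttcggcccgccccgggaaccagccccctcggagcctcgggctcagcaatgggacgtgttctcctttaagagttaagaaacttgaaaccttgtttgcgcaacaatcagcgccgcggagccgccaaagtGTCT

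A match of 4 letters is common. GTCT on either strand was found in 82.9% of 32851 windows of the same length, GGCGCC in 9.59% and GTCTAGAC in 0.167%. Neither printed window held GGCGCC or the palindrome. Of the 9 genes, 6 were matched in the RefSeq table, and Bmp2, Acvrl1 and Id1 were not. Among the 6 matched windows that of Bmpr2, not printed, held GGCGCC 1 time, 105 bases before the start, and the others held none.

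Of the target genes, Id1 (ENSMUSG00000042745, plus strand of chromosome 2 at 152736251 to 152737410) was the more restricted. Endothelial cells had 372 CPM (358–387) in WT and 396 CPM (378–415) in mutant. Mesenchymal cells had 15.9 CPM (12.8–19.6) and 22.5 CPM (18.3–27.4), so the endothelial level was 23.3-fold (18.9–29.2) and 17.6-fold (14.4–21.8) higher. Among the 15 types smooth muscle cells were next, at 202 CPM (180.5–225) and 162 CPM (141–185). The unnamed Dok6-led stromal cluster was higher than those, at 381 CPM in WT and 319 CPM in mutant. In WT its interval overlapped that of endothelial cells.

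Id1 peaked in the arterial cells, which had 734 CPM (686–784) in WT and 834 CPM (774–896) in mutant. Capillary cells had 343 CPM (323–364) and 319 CPM (295–345), and venous cells 262 CPM (242–283) and 274 CPM (249–300.1). The arterial level was 2.80-fold (2.53–3.10) and 3.05-fold (2.71–3.43) above the venous level. Capillary and venous intervals were separate in WT and overlapped in mutant.

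Id3 (ENSMUSG00000007872, plus strand of chromosome 4 at 136143497 to 136145755) was shared by vessels and stroma. Endothelial cells had 549 CPM (532–567) in WT and 433 CPM (414–452) in mutant, against 333 CPM (318–348) and 266 CPM (251–282) in mesenchymal cells. Smooth muscle cells were higher than endothelial cells in both libraries, at 823 CPM (779.6–868) and 663 CPM (619.6–708). Neutrophils had 13.9 and 5.28 CPM. Within the endothelium the arterial cells again led, at 795 CPM (745–847) and 625 CPM (574–679.8), ahead of venous cells at 586 and 424 CPM and capillary cells at 451 and 369.5 CPM.

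The inhibitor Smad6 (ENSMUSG00000036867, minus strand of chromosome 9 at 63953076 to 64022059) was an arterial transcript within the endothelium. Arterial cells had 111 CPM (92.8–132) in WT and 187 CPM (159–217) in mutant, venous cells 25.8 CPM (19.9–32.9) and 18.1 CPM (12.2–25.8), and capillary cells 29.1 CPM (23.5–35.6) and 29.6 CPM (22.6–38.1). The arterial level was 4.29-fold (3.17–5.88) and 10.3-fold (6.96–15.8) above the venous level. A Smad6 UMI was found in 43.7% and 68.7% of arterial cells, or 20.3% and 28.9% after thinning. Neutrophils had one in 1.30% and 1.25% of cells, with median depths of 4745 and 8991 UMIs against 6906 and 9202 in arterial cells.

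The 2 capillary clusters differed in Smad6. The Fhod3-led one had 7 of 8 capillary markers raised and the Btnl9-led one 3 of 8, the fewest needed for a name. The Fhod3-led cluster had 13.6 CPM (9.32–19.2) in WT and 17.5 CPM (11.5–25.7) in mutant, and the Btnl9-led cluster had 70.5 CPM (54.0–90.3) and 62.5 CPM (43.3–87.3). Their intervals did not overlap in either library. Eng, Acvrl1 and Bmpr2 differed by less than 1.5-fold between these clusters in both libraries. Bmp4 had 54 WT and 21 mutant UMIs in the Fhod3-led cluster and 2 and 3 in the Btnl9-led one. The arterial marker Sema3g was at 128 and 107 CPM in the Btnl9-led cluster, 40.0 and 18.9 CPM in the Fhod3-led one and 493 and 615 CPM in arterial cells. Hey1 was at 37.5 and 47.8 CPM in the Btnl9-led cluster and 7.67 and 8.77 CPM in the Fhod3-led one.

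**Figure D3:**
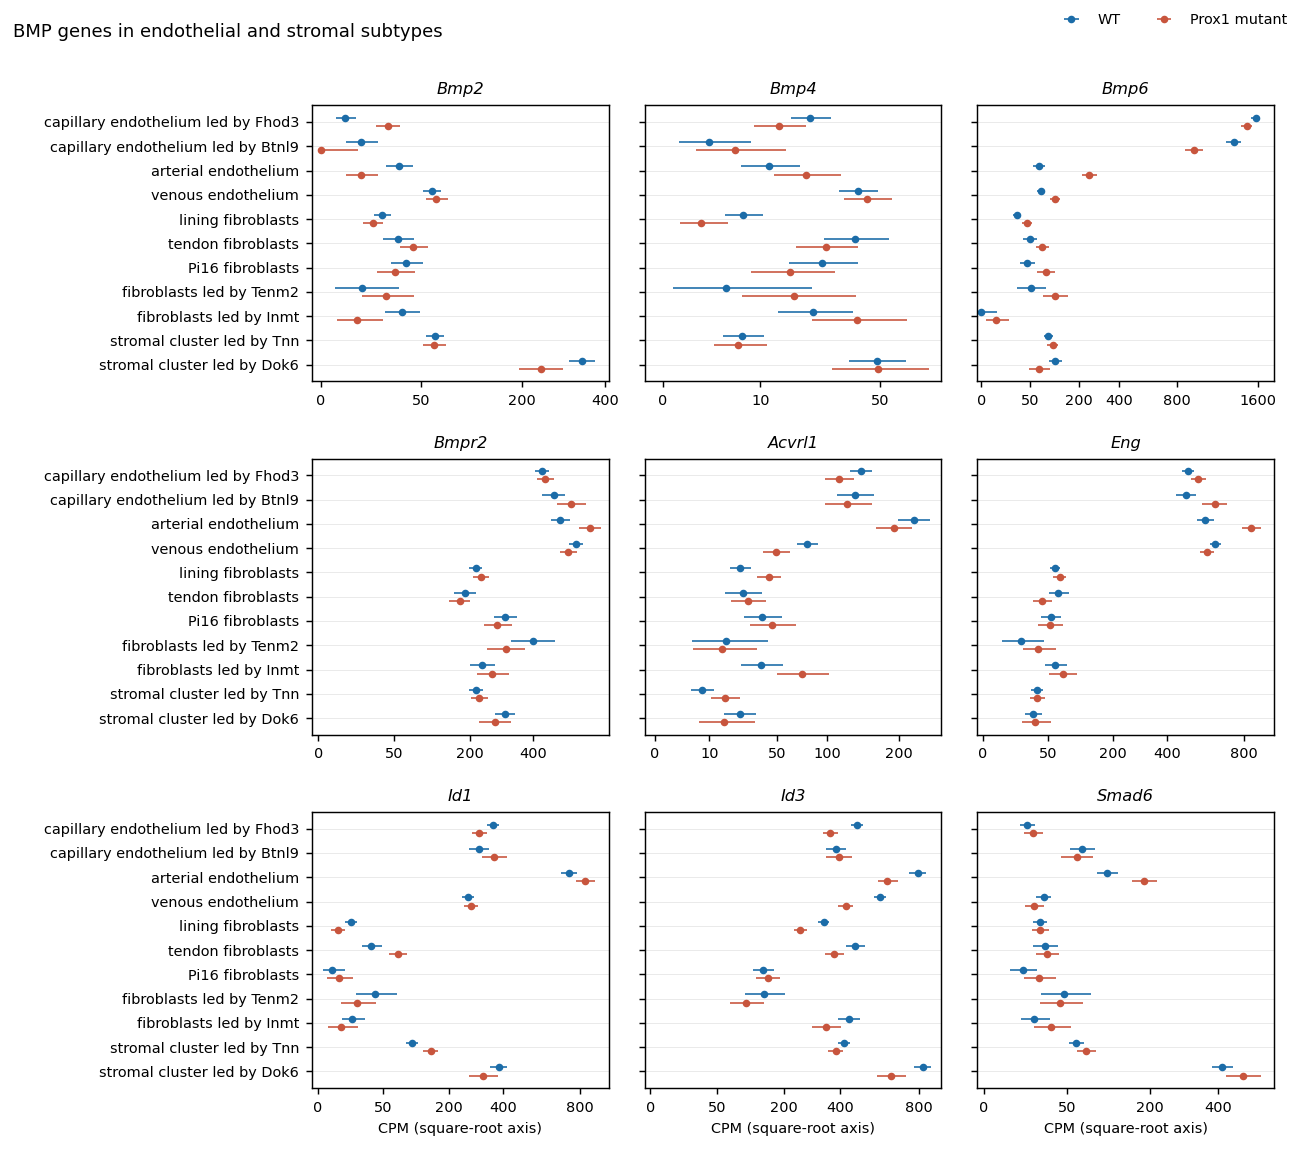
Level of each of the 9 BMP genes in CPM (horizontal, square-root axis) in endothelial and stromal subtypes of the WT library (blue) and the Prox1 mutant library (red), with bars for the 95% counting interval. Bmp6 stands out in both capillary clusters, Bmp2 and Bmp4 in venous endothelium among the vessels, Acvrl1, Id1 and Smad6 in arterial endothelium, and Bmp2, Id1 and Smad6 in the Dok6-led stromal cluster.

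Counted over the 9 genes, the vessel types differed as follows when a 2-fold difference was required in both libraries after adding 5 CPM. Against arterial cells, capillary cells had 1 gene higher (Bmp6), where 3.18% of 9452 genes were, and 2 lower (Id1 and Smad6), where 4.05% were. Against venous cells they had 1 higher (Bmp6, 4.36% of 10115 genes) and 2 lower (Bmp2 and Bmp4, 6.56%). Arterial cells had 3 genes higher than venous cells (Acvrl1, Id1 and Smad6, against 3.65% of 9269 genes) and 0 lower (4.15%).

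The same count between endothelial and mesenchymal cells gave 5 of 9 genes higher in the endothelium (Bmp6, Bmpr2, Acvrl1, Eng and Id1), where 10.4% of 12631 genes were, and 0 lower, where 11.3% were. Bmp2 and Bmp4 differed by less than 2-fold, and Id3 was 1.65-fold (1.56–1.74) and 1.63-fold (1.52–1.75) higher. Smad6 was at 40.9 CPM (36.3–45.9) and 54.9 CPM (48.4–62.1) in endothelial cells and at 22.1 CPM (18.4–26.4) and 26.9 CPM (22.2–32.2) in mesenchymal cells. Mesenchymal markers summed to 208 CPM in WT and 98.3 CPM in mutant endothelial cells, against 9915 and 9316 CPM for the endothelial markers.

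A list of 45 further genes of the pathway held more genes on the mesenchymal side. With 30 of them measured at 50 UMIs or more, 7 were higher in endothelial cells and 13 in mesenchymal cells. Over all genes the shares were 10.4% and 11.3% of 12631. The signal transducer Smad1 was at 262 and 252 CPM in WT and mutant endothelial cells against 88.6 and 103 CPM in mesenchymal cells, the inhibitor Smad7 at 162 and 180 CPM against 65.6 and 86.8 CPM, and the membrane BMP-binding protein Crim1 at 587 and 671 CPM against 85.2 and 89.4 CPM. Acvr2b, Bambi, Hey1 and Atoh8 were the other genes higher in endothelium.

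The 13 genes higher in mesenchymal cells were mostly extracellular antagonists and modulators (among them Chrd, Chrdl1, Fst, Bmper, Twsg1, Nbl1 and Htra1), with the co-receptor Rgma, the ligands Bmp3 and Bmp5 and the type I receptors Bmpr1a and Bmpr1b. Nbl1 was at 601 and 463 CPM in mesenchymal cells, and Bmper at 125 and 137 CPM. Bmpr1a, the type I receptor for Bmp2 and Bmp4, was at 138 and 131 CPM in mesenchymal cells and at 1.83 and 1.51 CPM in endothelial cells. The ligand Gdf2 had at most 1 UMI, and Bmp10 had 0.

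**Figure D4:**
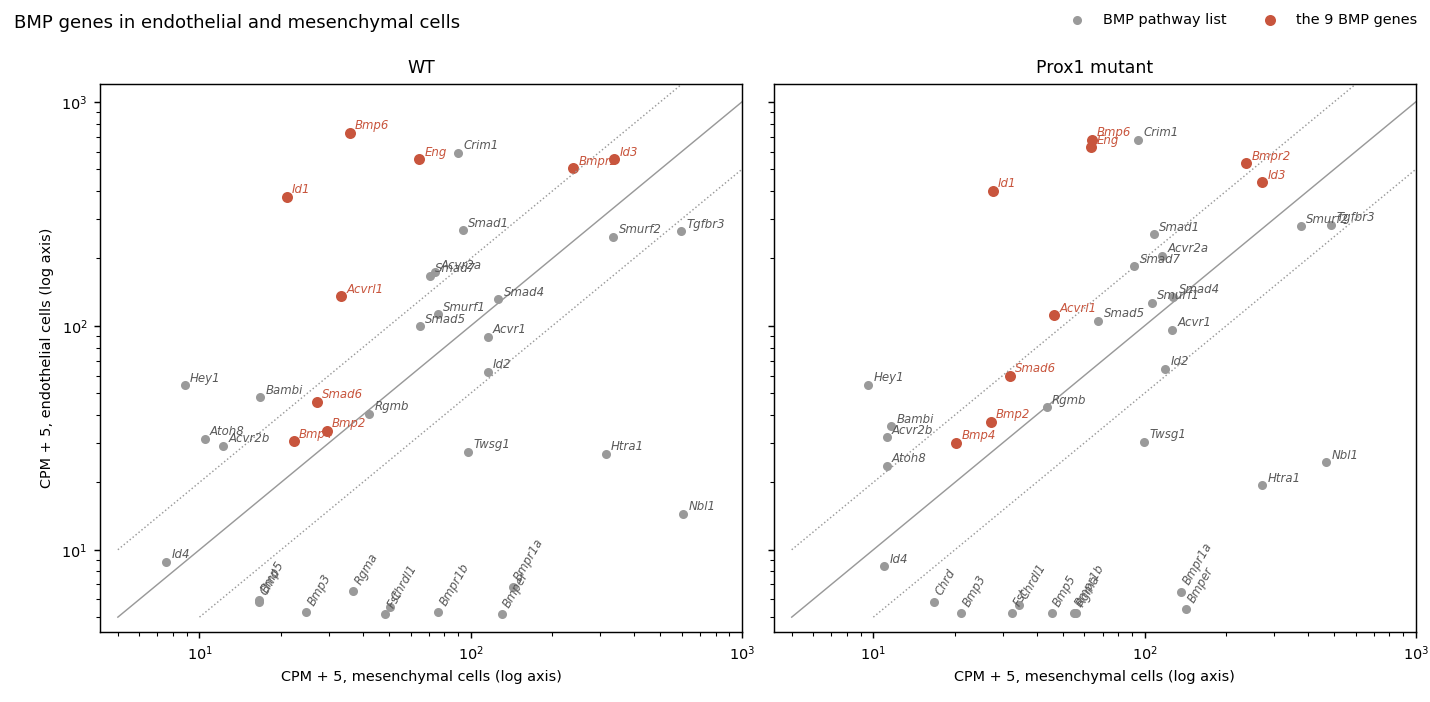
Level of the 9 BMP genes (red) and of the pathway list (grey) in endothelial cells (vertical, CPM with 5 added, log axis) against mesenchymal cells (horizontal, CPM with 5 added, log axis), WT on the left and mutant on the right. The solid line marks equal levels and the dotted lines 2-fold differences, and Bmp6, Eng, Id1 and Acvrl1 lie above the upper dotted line in both libraries while Nbl1, Bmper and Bmpr1a lie below the lower one.

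Among vessel types the pathway list showed the same arterial lean in some of its members. Smad7 was at 280 and 360 CPM in WT and mutant arterial cells against 126 and 96.5 CPM in venous cells, and Hey1, a Notch and BMP target, at 187 and 183 CPM against 26.6 and 16.9 CPM. Arterial cells had 3 of 19 measured genes higher than venous cells (Smad7, Hey1 and Htra1), where 3.65% of all genes were. They had 1 lower (Tgfbr3, 149.97 and 90.5 CPM against 367 and 493 CPM), where 4.15% were. The type II receptor Acvr2a was highest in capillary cells, at 256 and 317 CPM, against 70.3 and 78.0 CPM in arterial and 109.7 and 128 CPM in venous cells.

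In stroma, the 2 clusters without a settled name had several of the 9 genes at higher levels than mesenchymal cells. The Dok6-led cluster had 5 of 9 genes higher than mesenchymal cells (Bmp2, Bmp4, Id1, Id3 and Smad6), against 9.71% of 11452 genes, and 0 lower (8.87%). Smad6 was at 413 CPM (378–451) in WT and 491 CPM (427–562) in mutant, 18.7-fold (15.3–23) and 18.3-fold (14.5–23.1) above mesenchymal cells. Id1 was at 381 CPM (347–418) and 319 CPM (268–377), 23.9-fold (19.0–30.4) and 14.2-fold (10.8–18.5) above them.

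Smad6 UMIs were found in 72 of the 86 WT and 21 of the 29 mutant cells of the Dok6-led cluster. Of the pathway list, 6 of 33 measured genes were higher there (9.71% of all genes) and 8 were lower (8.87%). Among the higher were the ligand Bmp7 (56.8 and 62.8 CPM), the pseudoreceptor Bambi (325 and 153 CPM) and the antagonist Sostdc1 (123 and 163 CPM). The Tnn-led cluster had Bmp2, Id1 and Smad6 higher than mesenchymal cells, against 3.66% of 11575 genes, and Acvrl1 lower, against 5.18%. There Bmp2 was at 64.7 and 63.9 CPM, Id1 at 104 and 148 CPM, and Smad6 at 62.2 and 76.5 CPM.

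Osteoblasts and osteocytes had Smad6 at 129 CPM (101–162) in WT and 300.3 CPM (256–349.6) in mutant, the highest of the 15 types. Within the mesenchymal cells the members were uneven. Id1 was at 33.7 and 74.5 CPM in tendon fibroblasts and at 12.7 and 4.62 CPM in lining fibroblasts. Bmp6 was at 0 UMIs in WT and 2 in mutant in the Inmt-led fibroblasts, but at 50.9 and 114 CPM in the Tenm2-led ones.

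The second comparison was between the genotypes, within each cell type of the inflamed joint. In endothelial cells 0 of 9 genes differed by 1.5-fold or more, against 12.9% of 10683 genes (6.28% higher and 6.63% lower in mutant). The median log2 ratio of mutant to WT was 0.08 for the 9 genes and 0.03 for all genes. The log2 ratios ran from -0.34 (-0.42 to -0.26) for Id3 to 0.43 (0.18–0.67) for Smad6, and those of Bmp2, Bmp4 and Bmp6 were 0.16, -0.03 and -0.11.

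The log2 ratio of Id3 was -0.34 in endothelial cells, -0.32 (-0.43 to -0.22) in mesenchymal cells and -0.31 (-0.44 to -0.19) in smooth muscle cells, each within the 1.5-fold limit. These were set side by side after their values were seen. Id3 was closer to equal in pericytes (-0.04), in muscle satellite cells (0.01) and in the Btnl9-led capillary cluster (0.05), and it was at 0.24 in chondrocytes and 0.44 in macrophages. Over all cells that passed the filters every member was at a lower CPM in the mutant library, from -0.13 for Acvrl1 to -0.86 for Bmp2 on the log2 scale. Named endothelial cells made up 23.8% of WT and 9.08% of mutant cells. The shallow Ccdc85a-led cluster made up a further 2.80% and 2.74%, and the Rbp7-led one 2.39% and 1.37%. The comparisons below were therefore made within a type, and the part of the cell mixture in the library-wide ratios was not tested.

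By vessel type, capillary cells had 0 of 8 measurable genes past 1.5-fold (15.8% of all genes). The Fhod3-led cluster alone had Bmp4 lower (7.67%), at 23 CPM (17.3–30.0) in WT and 14.2 CPM (8.77–21.6) in mutant from 54 and 21 UMIs, and the Btnl9-led cluster had 0 of 7 past it (17.2%). In arterial cells 2 of 7 genes, Bmp6 and Smad6, were higher in mutant, against 7.17% of genes. In venous cells Bmp6 was higher (8.33%) and Acvrl1 lower (9.24%). In the shallow Ccdc85a-led cluster 1 of 5 measurable genes, Bmp6, was lower, where 14.9% of genes were. In the shallow Rbp7-led cluster 1 of 4, Bmpr2, was lower, where 22.5% were. In cells with low haemoglobin these log2 ratios were -0.46 and -0.39, under the limit.

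The arterial difference in Smad6 was the more evenly carried. Smad6 had a log2 ratio of 0.75 (0.41–1.09), and 0.72 after the top cell of each library was left out. Bmp6 had a log2 ratio of 1.82 (1.45–2.21), and 1.67 without the top cells, but its UMIs sat in 26 of 135 WT and 17 of 83 mutant arterial cells, with 48 in 1 cell. In venous cells the Bmp6 log2 ratio of 0.60 (0.30–0.90) became 0.25 without the top cells, 1 of which held 55 UMIs. Haemoglobin was at 301 CPM in WT and 32299.7 CPM in mutant arterial cells. Markers of other cells were lower in the mutant arterial cells, at 437 and 71.2 CPM for mesenchymal, 339 and 24.9 CPM for smooth muscle and 143 and 30.5 CPM for pericyte markers. Over arterial cells with low haemoglobin (135 WT and 78 mutant) the log2 ratio was 0.75 for Smad6 and 1.79 for Bmp6. The part of haemoglobin in the ratios was not tested beyond this, and that of the other markers was not tested.

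In mesenchymal cells 1 of 9 genes, Bmp6, was past 1.5-fold and higher in mutant (7.05% of 10707 genes, with 12.4% past the limit in either direction). The log2 ratio was 0.93 (0.65–1.22), and 0.88 without the top cell of each library and 1.0 in cells with low haemoglobin. UMIs were found in 55 of 365 WT cells and 56 of 239 mutant cells, or in 5.08% and 6.54% of cells after thinning, against 1.13% and 0.338% in neutrophils. The median log2 ratio of the 9 genes was -0.01, beside 0.03 for all genes.

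Bmp6 was higher in mutant in 4 of the 5 named or gene-led fibroblast subtypes. The log2 ratio was 0.68 in lining fibroblasts (7.87% of genes higher), 0.68 in tendon fibroblasts (9.89%), 0.96 in Pi16 fibroblasts (9.12%) and 1.17 in Tenm2-led fibroblasts (13.8%). Without the top cell of each library the tendon ratio was 0.33, under the limit, and the others were 0.64, 0.93 and 1.21. Acvrl1 was higher in lining fibroblasts (log2 ratio 0.84) and in Inmt-led fibroblasts (0.94, where 15.1% of genes were higher). Tendon fibroblasts also had Id1 higher (1.14) and Eng lower (-0.70, where 9.91% of genes were lower). Without the top cells the Id1 ratio was 0.77 and the Eng ratio -0.56, which was no longer past the limit. The Tnn-led cluster had 0 of 7 genes past the limit (16.7% of genes), and the Dok6-led cluster had 1 of 8, Bmp6, lower (-0.72, 14.2%).

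**Figure D5:**
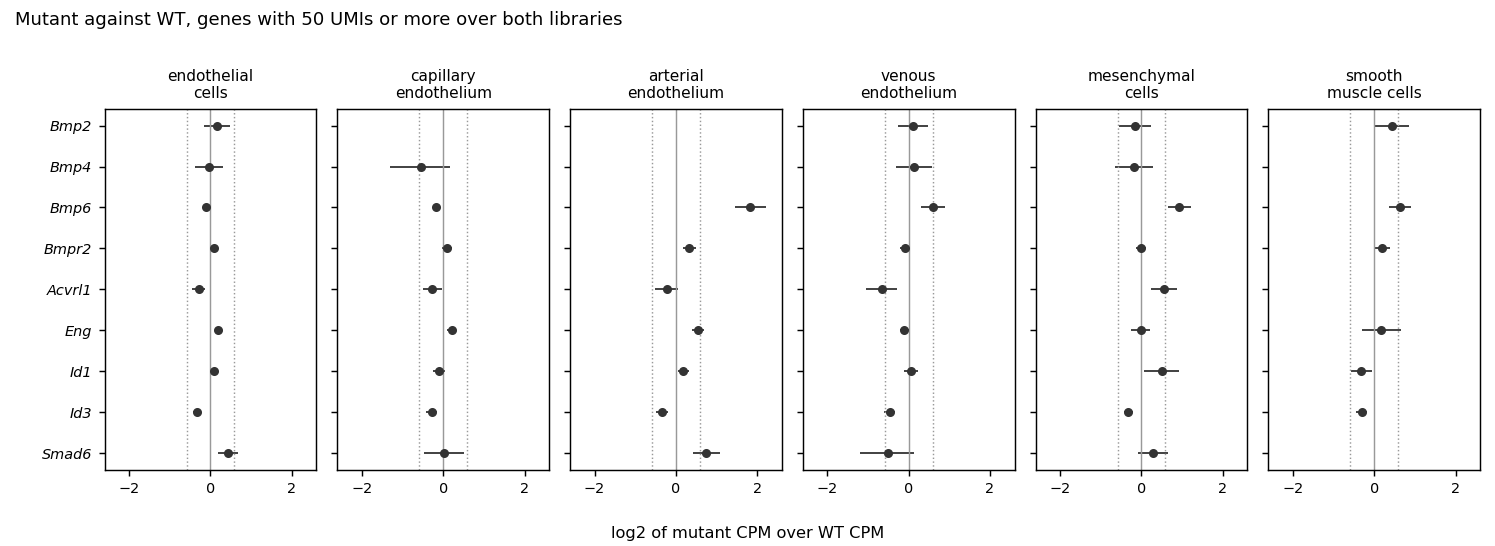
Log2 ratio of mutant CPM to WT CPM (horizontal) for each of the 9 BMP genes with at least 50 UMIs over both libraries, in endothelial cells, 3 vessel types, mesenchymal cells and smooth muscle cells, with bars for the 95% counting interval and dotted lines at 1.5-fold. All points for endothelial and capillary cells lie within the dotted lines, and Bmp6 lies to the right of them in arterial, venous, mesenchymal and smooth muscle cells.

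In the other 13 named types, 19 of 52 gene and type pairs with at least 50 UMIs were past 1.5-fold, or 36.5%, against 25.3% of 75432 pairs over all genes. Bmp6 was higher in smooth muscle cells, with a log2 ratio of 0.63 (0.36–0.90), where 6.01% of genes were. In chondrocytes it was lower, at 255 CPM (223–289) in 29 WT cells and 78.3 CPM (57.8–104) in 107 mutant cells, a log2 ratio of -1.70 (-2.18 to -1.25), where 19.9% of genes were lower. Id1 was higher there (0.71, 29.8%). Haemoglobin in chondrocytes was at 151 CPM in WT and 129577 CPM in mutant, and over the 13 mutant cells with low haemoglobin the Bmp6 log2 ratio was -1.82.

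Pericytes had Bmp2 and Eng lower in mutant (-1.97 and -1.13, where 13.8% of genes were), from 45 against 7 and 83 against 23 UMIs. The Eng ratio became -0.78 without the top cells. Endothelial markers summed to 1029 CPM in WT and 399.9 CPM in mutant pericytes and neutrophil markers to 222 and 13474 CPM, and their part in both ratios was not tested. Smad6 was higher in osteoblasts and osteocytes (1.22, or 1.05 without the top cells), where 24.3% of genes were.

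The remaining pairs were mostly in blood cells. Acvrl1 was higher in neutrophils (0.87, 9.16% of genes higher), Bmpr2 higher in B cells (1.28, 15.5%) and Id1 higher in macrophages (0.65, 12.0%). Macrophage Id1 was low, at 5.21 CPM in WT and 8.16 CPM in mutant. Its ratio was 0.52 in cells with low haemoglobin, under the limit. Id3 was lower in Schwann cells (-0.63, 13.7% of genes lower), monocytes (-0.80, 11.4%), neutrophils (-1.40, 10.6%) and B cells (-0.79, 16.6%), and Id1 was lower in granulocyte-monocyte progenitors (-0.93, 7.95%). Neutrophils, the background for free RNA, had Id3 at 13.9 CPM in WT and 5.28 CPM in mutant. The part of free RNA in that ratio was not tested. In erythroid cells Bmp6, Bmpr2, Eng, Id1 and Id3 were lower (17.8%), all from levels of 34 CPM or less in WT. Endothelial markers in these cells summed to 282 CPM in WT and 87.1 CPM in mutant and mesenchymal markers to 497 and 91.7 CPM, and their part in the lower levels was not tested.

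Of the pathway list, 2 of 19 measurable genes were past 1.5-fold in endothelial cells, against 12.9% of all genes. The antagonist Nbl1 was higher (9.44 and 19.6 CPM, log2 ratio 1.05) and the protease Htra1 lower (21.9 and 14.4 CPM, -0.60), and 17 were within 1.5-fold, with a median log2 ratio of 0.10. In mesenchymal cells 6 of 28 were past it, against 12.4% of all genes. The 3 higher were the ligand Bmp5 (11.6 and 40.4 CPM), the receptor Acvr2a (68.7 and 111 CPM) and the co-receptor Rgma (31.9 and 50.8 CPM). The antagonists Chrdl1 (45.5 and 29.4 CPM) and Fst (43.5 and 27.3 CPM) and the pseudoreceptor Bambi (11.8 and 6.66 CPM) were lower, and 22 were within 1.5-fold.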

How the data were processed

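Cells were dissociated from the TMJ and captured in droplets by the authors, with the single-cell 3′ v2 kit per the labels and v3.1 per the methods. The authors aligned the reads to mouse genome GRCm38 with Cell Ranger 7.0.1 and deposited 1 table of raw UMI counts per library, without normalization and without cell type names. A barcode was kept here if it had 500 genes or more and less than 10% of its UMIs from mitochondrial genes. They were normalized (sctransform 0.4.2), integrated and clustered with Seurat 5.3.0 in R 4.3.3 (200 principal components, resolution 1.5; subclusters 30 components, resolution 0.3), with the 9 genes and the pathway list left out, so that 2974 of 3000 features were used. Doublets were scored with Scrublet (scanpy 1.11.5), whose automatic threshold called 0 of 5469 and 0 of 7603 barcodes, and no cell was removed in the values reported.

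A cluster took a cell type's name where at least 3 of its markers, and the majority of them, were raised (2 times the other cells and in at least 10% of cells). It stayed unnamed where another type's markers came close, its cells were shallow or over 90% came from 1 library. The rules on the majority and on 1 library were added after the clusters were seen. These 2 rules were not applied to subclusters, which needed at least 3 raised markers. Of 45 clusters, 25 were named, and the 20 unnamed ones held 988 WT and 2674 mutant cells.

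Counts were summed per library and type and given as CPM, with Python 3.11.15, scipy 1.17.1, numpy 2.4.6 and pandas 2.3.3. A mutant to WT difference was counted from 1.5-fold with at least 50 UMIs, and a difference between types from 2-fold in both libraries after adding 5 CPM. An upper limit for 0 UMIs is 3 counts. No p-value was computed, since there was 1 library per genotype. The scripts were tested on simulated counts. The named genes were the 9 members and those of the pathway list past these limits, and the members, the lists and the rules were chosen with earlier results of these data known. A gene of the pathway list is counted in the totals but not reported here by name.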

Additional observations from a re-analysis of the deposited data

Results flagged for a closer look

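Bmp6 moved in opposite directions between the libraries in different cell types. The log2 ratio of mutant to WT was 0.93 in mesenchymal cells and 0.63 in smooth muscle cells, but -1.70 in chondrocytes. With 1 library per genotype the difference between these ratios was not tested. Mutant chondrocytes had a median of 3359 UMIs per cell and WT chondrocytes 32750, and haemoglobin was at 129577 CPM in the former and 151 CPM in the latter.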

How the results depend on the processing

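No paired analysis was possible because there was 1 library per genotype, and for the same reason no replicate could be left out. The 19 alternatives were run on the mutant to WT ratios of endothelial and mesenchymal cells only. Of those ratios 1 was past the limit, Bmp6 in mesenchymal cells, and it kept its sign under all 19. Ratios in subtypes and in the other 13 types were recomputed only without the top cells and in cells with low haemoglobin. Some ratios within the limit changed sign. After thinning, Id1 in mesenchymal cells went from 0.50 to -1.04 and Acvrl1 from 0.55 to -0.22, as did Bmp2 in endothelial cells (0.16 to -0.47). Eng in mesenchymal cells kept its sign under 10 of 19 alternatives. The number of the 9 genes past 1.5-fold in endothelial cells stayed at 0 under 17 of 19 alternatives, but was 2 with the libraries merged without integration (Bmp6 lower, Smad6 higher, 327 mutant endothelial cells) and 1 with each cell thinned to 2000 UMIs (Smad6 higher). In mesenchymal cells the number was 1 under 9 of 19 alternatives, a gene other than Bmp6 after thinning and with a marker gate in place of clusters. It was 3 with the looser filter of 200 genes and 20% mitochondrial UMIs, with the highest Scrublet scores removed, with 30 principal components and with equal weight for each subtype. It was 2 with the libraries merged, with log-normalization of 2000 variable genes, with resolution 0.5, with cluster names free of the 2 added rules and with the Tnn-led and Dok6-led clusters included, and 0 at a 2-fold limit. The Bmp6 log2 ratio in mesenchymal cells was 0.28 with those 2 clusters included, 0.39 with the marker gate and 0.49 after thinning. These values were below the limit, so Bmp6 was not among the genes counted in those settings. Under the other alternatives the Bmp6 ratio ran from 0.69 to 1.014. The number of genes 2-fold above every other type in endothelial cells was 1 under 5 of 16 alternatives. It was 2 with the looser filter, the stricter filter on genes and mitochondrial UMIs, Scrublet scores, merged libraries, log-normalization, 30 components or names free of the added rules, 3 at resolution 0.5, with the marker gate or at 1.5-fold (Bmp6, Eng and Id1), and 0 at 4-fold. The rules on names and the inclusion of the 2 clusters were chosen after seeing the data. The cause of these shifts was not tested. Low counts limit Bmp2, Bmp4 and Smad6 most, and a single library per genotype limits every ratio.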

Other observations

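The cells with lymphatic markers (at least 3 of 7 found in the cell), 12 in WT and 4 in mutant, were too few for the comparisons. Their Bmpr2 level was 315 CPM in WT and 253 CPM in mutant, their Eng level 198 and 197 CPM and their Id3 level 169 and 70.3 CPM. Bmp2 and Smad6 had 0 UMIs in both, which allows up to 17.5 CPM in WT and 42.2 CPM in mutant. Bmp4 had 10 UMIs in WT, 9 of them in 1 cell, and Bmp6 had 15 in mutant, all in 1 cell.

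Barcodes that failed the filters, 1357 in WT and 2089 in mutant, carried the same genes at lower levels. Bmp6 was at 47.0 CPM in WT and 28.3 CPM in mutant, Bmpr2 at 73.6 and 35.2 CPM, and Id3 at 59.4 and 20.5 CPM. Eng was at 19.8 and 9.36 CPM and Acvrl1 at 8.74 and 6.65 CPM.

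Genes with the most similar level over the 15 types in both libraries (30 profiles, Pearson correlation of log2 CPM with 5 added) were Plxna2 (0.91) and Cd200 (0.90) for Bmp6, Adgrl2 (0.91) for Eng, Slfn5 (0.84) for Acvrl1 and Gcc1 (0.78) for Id1. For Bmp2 they were Tgfb2 (0.93) and Mfge8 (0.92), for Smad6 Lepr (0.90), for Bmp4 Pcdhgb4 (0.91), for Bmpr2 Ctif (0.92) and for Id3 Yap1 (0.95). Among the 9 genes the highest correlation was between Bmpr2 and Id3 (0.86) and the lowest between Bmp6 and Acvrl1 (-0.03). The profiles share libraries and cell types, so these values are a description.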
